A study of Mus musculus with 2 samples.

Results

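The TNF ligand and receptor superfamily was examined in RNA sequencing of lymphatic endothelial cells (LECs) from embryonic mouse skin. Members were the genes whose symbols begin with Tnfrsf or Tnfsf followed by a number, and 14 further genes of the family that carry other names, from Tnf, Lta and Ltb to Fas, Cd40, Eda and Ngfr. The rule found 45 genes, 27 receptors and 18 ligands, among 24319 listed genes. It uses names and no measured value. The 2 libraries came from E15.5 (embryonic day) skin of strain C57BL/6, one labelled wild type (the control library) and one labelled Dot1l knockout. Dot1l encodes the methyltransferase of lysine 79 on histone H3. Per the labels' protocols the deletion was endothelial, each library held a pool of RNA from 2 to 3 biological replicates, and only RNA whose integrity number exceeded 7.0 was taken. The sources used here give neither the Cre driver nor the way the cells were purified. The labels also carry a protocol for cultured primary dermal LECs, and whether the sequenced cells were cultured is not given.

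TNF family ligands are mostly trimeric membrane proteins of immune and stromal cells that can be shed. Their receptors either carry a death domain, which recruits TRADD or FADD and can start caspase-driven death, or bind TRAF proteins directly and switch on NF-kB and stress kinases. Some receptors are decoys that bind ligand without a signal. In lymphatic biology the family is known for the lymphotoxin beta receptor in lymph node formation and for the activation of endothelium by TNF. In embryonic skin, ectodysplasin and its receptor EDAR guide the placodes of hair follicles.

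Each genotype had 1 library, so there is no replicate error, and no test or p-value is given. Values are FPKM as deposited, that is fragments scaled to transcript length in kilobases and to 1000000 mapped fragments. The depth is not stated. Low values fell on whole multiples of a step that corresponds to about 10200000 fragments in the control library and 9080000 in the other. Intervals printed after a fold are 95% exact intervals of the ratio of fragments estimated in that way. They cover counting error only, not the spread between embryos or pools. Differences are log2(FPKM + 1) in the knockout-labelled library minus control, a scale that understates changes of low genes. A gene was called higher or lower when this difference reached 2-fold. Dot1l itself was 5.86 FPKM in control and 10.4 where the label says knockout, so this whole-gene value is no check of the genotype, and the second library is named below by its label only. A value of exactly 0 can be a failed estimate, because the sterol gene Hmgcs1 is at 0 in both libraries.

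In the control library the family was represented mainly by receptors. Its 7 members at 10 FPKM or more were all receptors: Ltbr at 21.8 FPKM, Tnfrsf11a at 20.0, Tnfrsf19 at 15.4, Tnfrsf12a at 12.6, Ngfr at 11.0, Tnfrsf1a at 10.7 and Tnfrsf21 at 10.01. The highest ligand in control was Tnfsf12 at 2.37 FPKM, and 10 of the 18 ligands were listed at 0. In the knockout-labelled library 9 members reached 10 FPKM, and Tnf, a ligand, was the highest of all at 71.2 FPKM. It was followed by Tnfrsf1a at 33.7, Tnfrsf9 at 29.4, Tnfrsf11a at 22.8 and the ligand Tnfsf14 at 20.4. The summed FPKM of all 18 ligands was 11.4 in control and 113 in the knockout-labelled library, while that of the 27 receptors was 129 and 191.

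Of the 45 members, 31 reached 1 FPKM in at least 1 library. Among these, 16 passed in both libraries, 10 only in the knockout-labelled library and 5 only in control. At least 2-fold higher values in the knockout-labelled library were seen for 11 of the 31 members, or 35.5%, where 16.78% of all 13296 genes at this level were higher. At least 2-fold lower values were seen for 4 members, or 12.9%, where 15.49% of all genes were lower, so the share of lower members was near the background. The median difference of the 31 members was 0.34 on the log2 scale, and that of all genes was 0.00. When both libraries were scaled to sum to 1000000, which shifted the median of all genes to -0.33, 11 members were higher and 7 lower, against 1900 and 3330 of all genes. Of the 9 ligands at this level 5 were higher and none lower, and of the 22 receptors 6 were higher and 4 lower. A gene that passes in only 1 library has its higher value there, so the minimum tilts these shares. The higher members Tnfrsf9, Tnfsf14, Tnfrsf14, Tnfsf18, Tnfrsf17, Tnfrsf26 and Tnfsf10 passed only in the knockout-labelled library. The lower members Tnfrsf11b and Tnfrsf22 passed only in control. These shares therefore describe the family and do not stand as evidence.

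**Figure D1:**
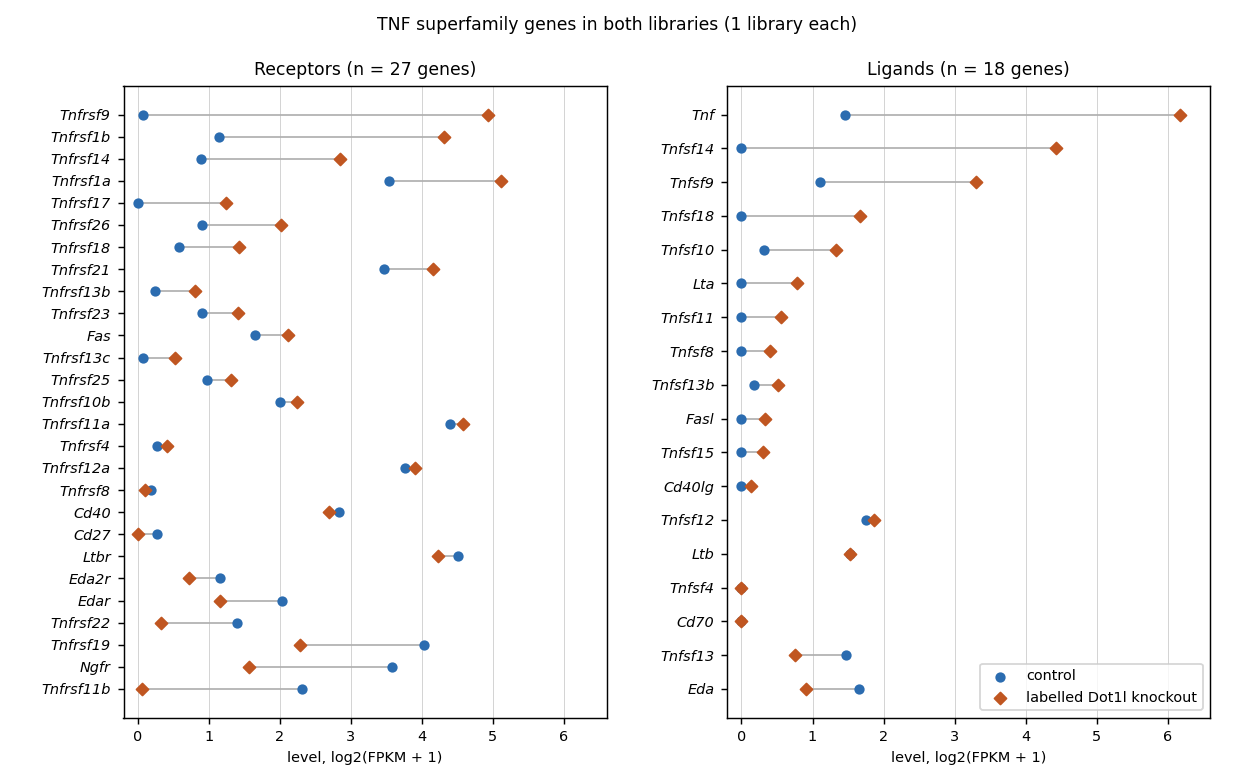
Level of each of the 45 TNF superfamily genes as log2(FPKM + 1) in the control library (blue circles) and the library labelled Dot1l knockout (orange diamonds), with a grey line joining the 2 values of a gene and genes ordered by their difference. The ligands Tnf, Tnfsf14 and Tnfsf9 and the receptors Tnfrsf9, Tnfrsf1b, Tnfrsf14 and Tnfrsf1a lie far to the right in the knockout-labelled library, and Tnfrsf11b, Ngfr and Tnfrsf19 lie to the left.

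The TNF axis had higher values at both the ligand and the receptors. Tnf, the inflammatory cytokine that gives the family its name, was 1.74 FPKM in control and 71.2 in the knockout-labelled library, 40.9-fold higher (interval 27.4 to 62.1). Its widely expressed death domain receptor Tnfrsf1a was 10.7 and 33.7 FPKM, 3.16-fold higher (2.70 to 3.72). Tnfrsf1b, the second TNF receptor, which binds TRAF2 and is prominent on leukocytes and activated endothelium, was 1.203 and 18.8 FPKM, 15.6-fold higher (11.4 to 21.5). The level of Tnfrsf1a exceeded that of Tnfrsf1b 8.86-fold in control and 1.79-fold in the knockout-labelled library. Tnf lay 6.12-fold under Tnfrsf1a in control and 2.11-fold above it in the other library. Lta, lymphotoxin alpha, which binds the same receptors, was listed at 0 in control and stood at 0.720 FPKM in the knockout-labelled library, about 8 fragments.

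These differences lay beside large differences in markers of other cells. All 18 measured macrophage markers and all 12 mast cell markers had at least 2-fold higher values in the knockout-labelled library. Their summed levels were 69.3 and 4745 FPKM for macrophages, and 112 and 13105 FPKM for mast cells. In control C1qc and Timd4 of the macrophage list and Fcer1a of the mast cell list were at 0. Of 6 neutrophil markers at 1 FPKM or more 5 were higher, and the summed level of the 11 listed was 7.17 and 351 FPKM, with Elane and Prtn3 at 0 in both libraries, Csf3r and Retnlg at 0 in control and Camp at 0 in the other. Of 6 dendritic cell markers at that level 5 were higher, and the 10 listed summed to 9.25 and 199 FPKM, with H2-Aa, Siglech, Cd209a, Xcr1 and Ccr7 at 0 in control and Clec9a at 0 in the knockout-labelled library. Every marker counted in these lists reached 1 FPKM in the knockout-labelled library. In control 9 of 18 macrophage, 8 of 12 mast cell, 2 of 6 neutrophil and 2 of 6 dendritic cell markers did. The minimum itself thus favoured higher calls. Of all genes 16.78% were higher and 15.49% lower. Pan-endothelial markers were lower for 13 of 14 genes, with summed levels of 1577 and 352 FPKM. Of 11 lymphatic markers 7 were lower, among them Prox1 (59.3 and 13.1 FPKM), and 3 higher, with sums of 1604 and 1045 over 12 listed genes, of which Ccl21a was at 0 in the knockout-labelled library. The part of these cells in the family's differences was not tested, and in bulk RNA fewer cells of a type and less RNA per cell cannot be told apart.

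**Figure D2:**
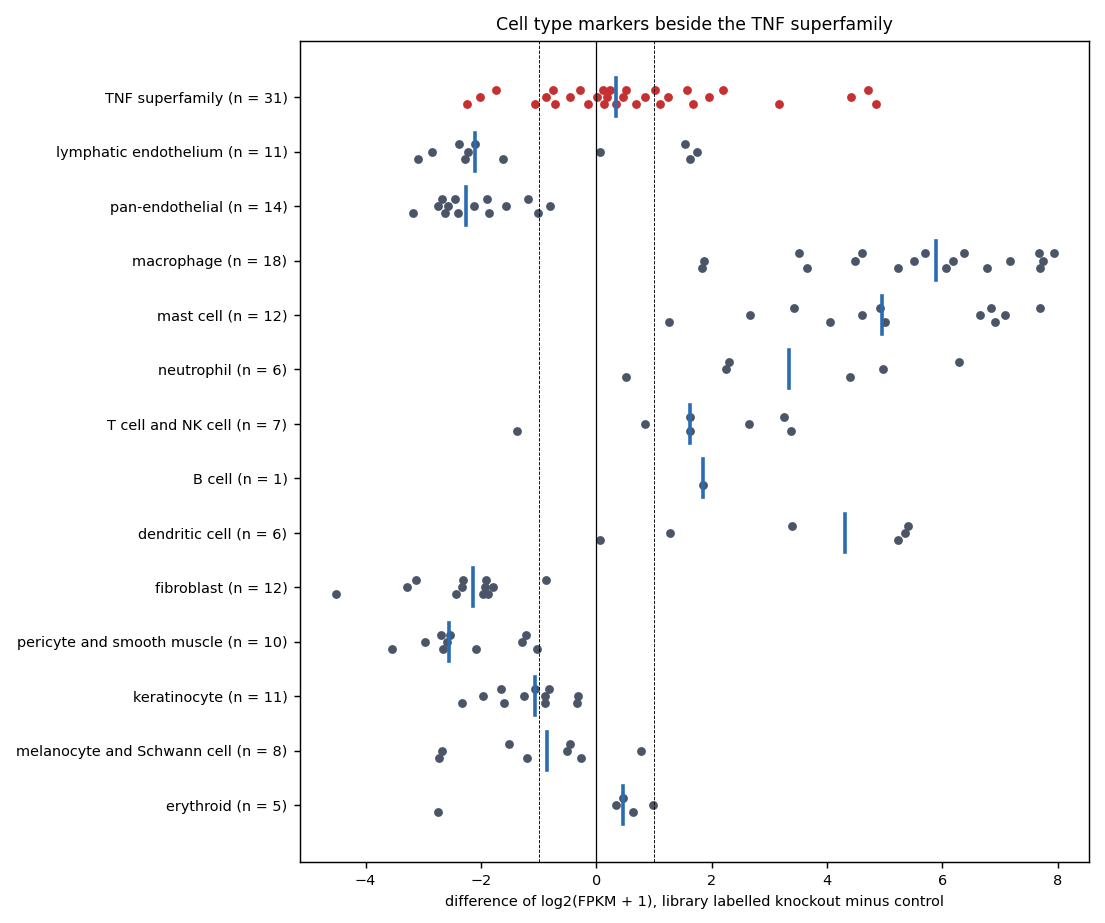
Difference of log2(FPKM + 1), knockout-labelled library minus control, for each gene at 1 FPKM or more in the TNF superfamily (red) and in 13 cell type marker lists (grey), with blue bars at the list medians and dashed lines at 2-fold. Macrophage and mast cell markers lie to the right with medians of 5.88 and 4.96, fibroblast, pericyte and pan-endothelial markers to the left with medians of -2.14, -2.56 and -2.26, and the TNF superfamily spans both sides.

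Among the lymphotoxin and LIGHT genes the receptor shared by both ligands lay within 2-fold. The ligand gene Tnfsf14, like Lta described above, was listed at 0 in control only. Tnfsf14, which encodes LIGHT, was listed at 0 in control and stood at 20.4 FPKM in the knockout-labelled library, about 305 fragments. Ltbr, the lymphotoxin beta receptor that LIGHT and lymphotoxin both bind, was 21.8 and 17.8 FPKM, 1.23-fold lower (1.05 to 1.42). Tnfrsf14, the herpesvirus entry mediator and the other receptor of LIGHT, was 0.862 and 6.203 FPKM, 7.20-fold higher (3.38 to 15.9). Ltb, lymphotoxin beta, was 1.87 and 1.89 FPKM, with an interval of the fold from 0.478 to 2.08. Ltbr was the highest member in control and the seventh in the knockout-labelled library. Pan-endothelial markers had a median difference of -2.26 and macrophage markers of 5.88. Which cells the Ltbr values come from was not tested.

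Among the receptors and ligands of the costimulatory branch, known best from lymphocytes, Cd40 had the highest level in control at 6.11 FPKM, and the others were at 1.14 FPKM or lower there. Tnfrsf9, which encodes 4-1BB, was 0.0539 FPKM in control, about 1 fragment, and 29.4 FPKM in the knockout-labelled library, about 512 fragments. The ratio was 546 with an interval from 103 to 22845, so its size is poorly known. Its ligand Tnfsf9 was 1.14 and 8.86 FPKM, 7.75-fold higher (4.24 to 14.9). Tnfsf9 was thus the more abundant partner in control and Tnfrsf9 in the knockout-labelled library. Tnfsf18, the ligand of GITR, was listed at 0 and at 2.19 FPKM, and its receptor Tnfrsf18 was 0.497 and 1.70 FPKM, within 2-fold on the log2(FPKM + 1) scale and 3.41-fold as a ratio (1.17 to 11.9). Tnfrsf18 and Tnfsf9 share 18.2% and 11.5% of the 50-base stretches of their transcripts with genes on the opposite strand, and the strand setting of the counting is not stated, so reads from these partners cannot be told apart.

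Of the other costimulatory genes Cd40 lay within 2-fold, and the rest were under 1.5 FPKM. Cd40, a receptor of antigen-presenting cells that endothelium also carries, was 6.11 and 5.46 FPKM (fold interval 0.710 to 1.12), while its ligand Cd40lg was listed at 0 and at 0.101 FPKM. Cd70 and Tnfsf4 were listed at 0 in both libraries, and Cd27, Tnfrsf4, Tnfrsf8 and Tnfsf8 stayed under 0.4 FPKM in both. Tnfrsf25, a death domain receptor, was 0.958 and 1.48 FPKM, and its ligand Tnfsf15 was listed at 0 and at 0.231 FPKM. Levels within the T and NK cell marker list were uneven. Cd3d was listed at 0 and at 0.282 FPKM, Cd3e at 0.237 and 0, Cd3g at 0 and 0.641, and Cd8a and Cd8b1 at 0 in both. Cd4 (0.133 and 9.77 FPKM) and Gzmb (0 and 9.38), which cells other than T cells can also express, were the highest of that list in the knockout-labelled library. Lck was the highest in control (4.55 and 1.15), and Nkg7 (0 and 5.28), Il7r (0.224 and 2.76) and Zap70 (0 and 2.10) had higher values in the knockout-labelled library. Of 7 T and NK cell markers at 1 FPKM or more, 5 were higher and 1 lower, beside 16.78% and 15.49% of all genes. All 7 reached 1 FPKM in the knockout-labelled library and only 1 in control, so the minimum itself favoured higher calls. The levels of the 16 measured genes summed to 6.03 and 33.9 FPKM.

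The receptors and ligands that support B cells were also low. Tnfrsf17, the B cell maturation antigen, was listed at 0 in control and at 1.36 FPKM in the knockout-labelled library, which rests on about 8 fragments. Tnfrsf13b and Tnfrsf13c, the other receptors for these ligands, stayed under 1 FPKM in both libraries, as did the ligand Tnfsf13b. Tnfsf13, which encodes APRIL, was 1.76 and 0.690 FPKM. The genes Tnfsf12 and Tnfsf13 share 49.0% and 51.9% of the 50-base stretches of their transcripts with the read-through gene Tnfsfm13, which was listed at 4.34 and 3.10 FPKM, so the split of reads among these 3 genes is uncertain. Of the B cell markers Ms4a1, Pax5 and Blk were listed at 0 in both libraries, and the 9 measured ones summed to 1.10 and 5.68 FPKM. Only Cd79b reached 1 FPKM (0.394 and 4.04).

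**Figure D3:**
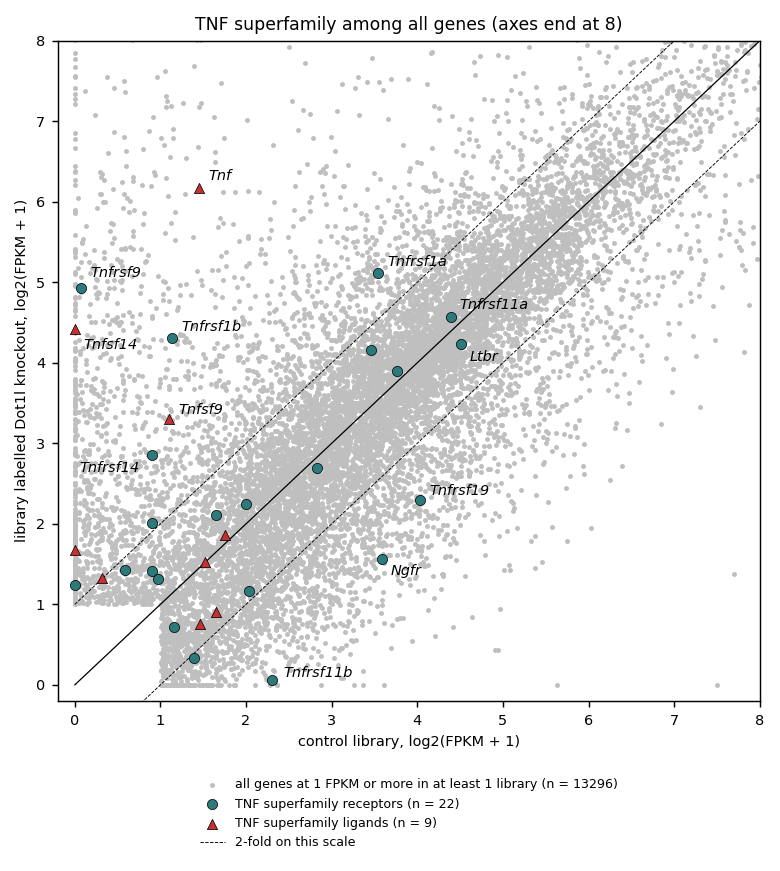
Level of all 13296 genes at 1 FPKM or more in at least 1 library (grey) and of the 22 receptors (green circles) and 9 ligands (red triangles) of the TNF superfamily among them, as log2(FPKM + 1) in the control library (horizontal) and the library labelled Dot1l knockout (vertical). Ltbr and Tnfrsf11a lie near the line of equal level, Tnf, Tnfrsf9 and Tnfsf14 far above the upper 2-fold line, and Tnfrsf19, Ngfr and Tnfrsf11b below the lower one.

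In the RANK axis the signalling receptor and the decoy parted. Tnfrsf11a, which encodes RANK, was 20.0 and 22.8 FPKM, 1.14-fold higher (1.04 to 1.25), the second highest member in control. Tnfrsf11b, which encodes osteoprotegerin, the secreted decoy that captures the RANK ligand, was 3.95 FPKM in control and 0.0412 in the knockout-labelled library. The second value is about 1 fragment against 106, and the ratio was 95.8-fold lower with an interval from 16.5 to 3748. The ligand Tnfsf11 was listed at 0 in control but at 0.475 FPKM in the other library, about 9 fragments. Osteoprotegerin is made mainly by stromal and vascular wall cells. In the same library 11 of 12 fibroblast markers were lower, with summed levels of 4468 and 1036 FPKM. All 10 pericyte and smooth muscle markers were lower too, with 207 and 32.2 FPKM, where 15.49% of all genes were lower. The share of these cells in the values of Tnfrsf11b was not tested.

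The receptors Ngfr and Tnfrsf19 also had lower values. Ngfr, the p75 neurotrophin receptor of Schwann and neural crest cells, was 11.0 and 1.96 FPKM, 5.62-fold lower (4.22 to 7.50). Tnfrsf19, which encodes TROY, a receptor of embryonic epithelium and neural tissue, was 15.4 and 3.89 FPKM, 3.96-fold lower (3.28 to 4.80). Both rest on at least 58 estimated fragments in each library. Of 8 melanocyte and Schwann cell markers at 1 FPKM or more 4 were lower and none higher, with Sox10 at 3.58 and 0.986 FPKM, and the 10 listed summed to 104 and 97.0 FPKM, of which Ednrb alone was 44.4 and 77.1 and Mlana was at 0 in control. Of 11 keratinocyte markers 6 were lower and none higher, with summed levels of 224 and 103 FPKM. Beside these lists, 15.49% of all genes were lower. Also lower were 11 of 12 fibroblast, 10 of 10 pericyte and smooth muscle, and 13 of 14 pan-endothelial markers. The share of these cells in the values of Ngfr and Tnfrsf19 was not tested.

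The ectodysplasin genes had lower values of similar ratio, all within 2-fold on the log2(FPKM + 1) scale. Eda, the ligand, was 2.15 and 0.873 FPKM, 2.46-fold lower (1.69 to 3.64), and Edar was 3.10 and 1.24 FPKM, 2.49-fold lower (1.71 to 3.67). Eda2r, the receptor of another splice form of the ligand, was 1.24 and 0.643 FPKM, 1.93-fold lower (1.19 to 3.13). The ratio of Edar to Eda was 1.44 in control and 1.42 in the knockout-labelled library. Edaradd, the adaptor of EDAR, was 0.910 and 0.687 FPKM. With a pseudocount of 0.1, or after rescaling to that common sum of 1000000, both Eda and Edar passed 2-fold lower.

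Among the other death receptors and their ligands, Tnfsf10 was higher and Fas, Tnfrsf10b and Tnfrsf21 lay within 2-fold. Fas was 2.13 and 3.32 FPKM, with an interval of the fold from 0.942 to 2.65, and its ligand Fasl was listed at 0 and at 0.254 FPKM. Tnfsf10, which encodes TRAIL, was 0.243 and 1.51 FPKM, 6.198-fold higher (3.32 to 12.6), and just past 2-fold on the log2(FPKM + 1) scale with a difference of 1.01. It was under that threshold with both libraries at the same upper quartile. Tnfrsf10b, the mouse TRAIL death receptor, was 3.01 and 3.73 FPKM (fold interval 0.924 to 1.66). Tnfrsf21, a death domain receptor also known as DR6, was 10.01 and 16.8 FPKM, 1.68-fold higher (1.46 to 1.93).

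The decoy TRAIL receptors and their neighbour went different ways at low levels. Tnfrsf22 was 1.63 and 0.259 FPKM, 6.30-fold lower (3.23 to 14.8), Tnfrsf23 was 0.875 and 1.67 FPKM, and Tnfrsf26, a related receptor, was 0.869 and 3.03 FPKM, 3.49-fold higher (2.204 to 5.63). Tnfrsf23 shares 29.9% of the 50-base stretches of its transcript with Tnfrsf22, so the split of reads between these paralogs is uncertain. The TWEAK pair was level in both libraries. Tnfsf12, which encodes TWEAK, was 2.37 and 2.65 FPKM, and its receptor Tnfrsf12a, also called Fn14, was 12.6 and 13.95 FPKM, with fold intervals of 0.657 to 1.94 and 0.829 to 1.47. The differences of Ltb, Tnfrsf10b, Tnfrsf11a, Tnfrsf12a and Tnfsf12 were above 0 as deposited and below 0 when scaled to a common sum of 1000000, so none of these 5 has a settled direction.

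Many family genes lie next to one another in the genome, and neighbours did not all share a call. In the order of protein-coding genes in RefSeq (GRCm38.p6, used for order only, since the submitters' processing notes name mm9), 23 members fell into 9 groups with at most 5 other coding genes between neighbours. On chromosome 17 Ltb, Tnf and Lta are adjacent, and of these Tnf differed 40.9-fold while Ltb was 1.87 and 1.89 FPKM. A second group on chromosome 17 holds Tnfsf9 and Tnfsf14, both higher, with Cd70, listed at 0 in both libraries, between them. On chromosome 6 Cd27, Ltbr and Tnfrsf1a lie close together, and of these only Tnfrsf1a was past 2-fold. On chromosome 4 Tnfrsf1b, 15.6-fold higher, adjoins Tnfrsf8, which was 0.142 and 0.0777 FPKM. Tnfrsf8, Cd27 and Cd70 rest on 5 estimated fragments or fewer in each library, so their directions are not known. Opposite calls were seen on chromosome 7, where Tnfrsf26 (0.869 and 3.03 FPKM) was higher and the adjacent Tnfrsf22 (1.63 and 0.259) lower.

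Promoter windows from RefSeq (GRCm38.p6), reaching from 250 bases before to 50 bases after a transcript start, were given for 35 members in 39 windows. They were searched on both strands for an NF-kB-like motif (GGG, any 2 bases, then TTTCC), an AP-1-like motif (TGANTCA, which reads the same on both strands) and an ETS-like motif (AGGAAGT). The NF-kB-like motif was in 3 of 39 windows, or 7.69%, and in 1.63% of all 32851 windows. The AP-1-like motif was in 7 windows of 6 genes, counting 2 overlapping windows of Tnfsf13b, or 17.9%, and in 7.81% of all. The ETS-like motif was in 6 windows, or 15.4%, and in 9.35% of all. Among the 10 windows of higher members these motifs were in 1, 2 and 2, and in none of the 3 windows of lower members. Those 3 windows belong to Ngfr and Tnfrsf19, and no window was given for Tnfrsf11b or Tnfrsf22. So few windows allow no contrast between higher and lower members. The 4 windows below are shown, 5′ to 3′ on the strand of the gene, because 3 belong to the members with the largest differences and the fourth to Ltb, the neighbour of Tnf listed at 1.87 and 1.89 FPKM, and each holds a match. The other window of Tnfrsf9 and that of Lta hold none of the 3 motifs and are not shown. Capitals mark the motif matches.
Tnf promoter, chr17:35201958-35202257, minus strand: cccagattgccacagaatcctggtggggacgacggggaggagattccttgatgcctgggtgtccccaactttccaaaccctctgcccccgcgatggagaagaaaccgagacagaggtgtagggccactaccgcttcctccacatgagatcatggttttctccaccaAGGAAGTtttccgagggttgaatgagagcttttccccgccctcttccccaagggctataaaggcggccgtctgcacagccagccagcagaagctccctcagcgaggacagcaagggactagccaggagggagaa
Tnfsf14 promoter, chr17:57194132-57194431, minus strand: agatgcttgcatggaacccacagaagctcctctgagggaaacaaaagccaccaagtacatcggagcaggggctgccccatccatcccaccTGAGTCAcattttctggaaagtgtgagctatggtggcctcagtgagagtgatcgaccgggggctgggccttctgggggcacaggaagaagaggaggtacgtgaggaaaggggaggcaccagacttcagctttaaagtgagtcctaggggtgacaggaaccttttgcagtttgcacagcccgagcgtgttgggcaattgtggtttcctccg
Tnfrsf9 promoter, chr4:150927749-150928048, plus strand: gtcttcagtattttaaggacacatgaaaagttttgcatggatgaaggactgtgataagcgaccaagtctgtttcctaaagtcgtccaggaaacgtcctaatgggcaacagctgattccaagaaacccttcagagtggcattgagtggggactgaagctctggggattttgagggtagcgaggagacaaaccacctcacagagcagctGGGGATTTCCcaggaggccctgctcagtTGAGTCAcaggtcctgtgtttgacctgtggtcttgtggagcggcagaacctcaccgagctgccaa
Ltb promoter, chr17:35194257-35194556, plus strand: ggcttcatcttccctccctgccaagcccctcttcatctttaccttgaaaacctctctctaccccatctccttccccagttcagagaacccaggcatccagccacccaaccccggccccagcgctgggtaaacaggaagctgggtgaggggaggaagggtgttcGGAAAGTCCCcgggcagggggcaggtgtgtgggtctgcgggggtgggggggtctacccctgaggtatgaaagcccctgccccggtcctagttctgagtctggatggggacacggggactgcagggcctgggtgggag
The Tnf window holds the ETS-like motif starting 84 bases before the start site. The Tnfsf14 window holds the AP-1-like motif at 160 bases before it. One of the 2 windows of Tnfrsf9 holds both the NF-kB-like motif, 43 bases before, and the AP-1-like motif, 15 bases before. The Ltb window holds the NF-kB-like motif on the opposite strand, 87 bases before the start. A match describes these letters and is not shown to be a binding site.

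The adaptors that connect the receptors to the cell were mostly within 2-fold. Over all pathway lists, with family members left out, 38 of 91 genes at 1 FPKM or more were higher and 4 lower, with a median difference of 0.82, or 41.8% higher and 4.40% lower, beside 16.78% and 15.49% of all genes. Among the TRAF proteins 5 of 7 lay within 2-fold: Traf2 (4.50 and 8.01 FPKM), Traf3 (4.02 and 5.61), Traf5 (4.11 and 4.67), Traf6 (5.81 and 6.02) and Traf7 (28.3 and 17.5). Traf1, itself a target of NF-kB, was 0.820 and 3.34 FPKM and was higher. Traf4, a TRAF of epithelial and neural development, was 9.94 and 1.53 FPKM and was lower, 6.48-fold. These single genes are 14.3% of the list in each direction, near the shares of all genes.

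Of 13 death domain adaptors and executors of cell death 5, or 38.5%, were higher and none lower, beside 16.78% and 15.49% of all genes. Those higher included Bid (2.36 and 17.2 FPKM), which links caspase-8 to mitochondria, and the necroptosis genes Mlkl (2.203 and 16.1) and Ripk3 (7.95 and 45.3). Siva1 (105 and 53.1), Bag4 (9.01 and 6.67) and Cradd (3.56 and 3.10) were lower by less than 2-fold. Among 16 ubiquitin ligases and kinases of the receptor complex 13 lay within 2-fold and 3, or 18.8%, were higher, a share near the 16.78% of all genes. Those were the kinase Map3k8 (2.22 and 15.9 FPKM), Birc3, a ubiquitin ligase that NF-kB induces (7.66 and 38.6), and the kinase Map3k5 (2.46 and 12.5). Next came Map3k14 (1.33 and 3.35), within 2-fold on the log2(FPKM + 1) scale and 2.51-fold higher as a ratio. The lowest 4 were Xiap (46.2 and 39.0), Tab3 (6.48 and 6.40), Rnf31 (5.94 and 6.45) and Rbck1 (11.6 and 12.6).

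Genes that restrain the pathway were higher in part, in the library in which macrophage markers had a median difference of 5.88. The part of macrophages in these values was not tested. Of 11 inhibitors 3, or 27.3%, were higher and none lower, beside 16.78% and 15.49% of all genes. Tnfaip3, which encodes the ubiquitin editor A20, was 4.64 and 243 FPKM, Cyld, a deubiquitinase, was 5.71 and 13.2, and Tnip2, an A20 partner, was 10.6 and 22.3. Spata2 followed at 2.23 and 5.07 FPKM, and at the low end Traf3ip2 was 2.35 and 0.728, Usp25 43.9 and 41.6, Tnip1 12.8 and 14.4, and Traip 2.55 and 4.19. Spata2 and Traf3ip2 were within 2-fold only on the log2(FPKM + 1) scale. As ratios they were 2.27-fold higher and 3.23-fold lower. Of 11 NF-kB subunits and inhibitors 8, or 72.7%, were higher and none lower, beside those same shares of all genes. The highest were the inhibitors Nfkbid (1.13 and 66.0 FPKM), Nfkbie (4.82 and 34.1) and Nfkbia (52.1 and 293) and the subunit Rel (1.82 and 14.6). The subunits Nfkb1 (17.1 and 24.4) and Rela (9.70 and 14.3), and Bcl3 (1.25 and 1.70), lay within 2-fold, and Nfkbib was 7.04 and 16.2.

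In the list of 8 genes that release ligands and receptors from the membrane or regulate this, 2 (25%) were higher and 2 (25%) lower. Of all genes 16.78% were higher and 15.49% lower. Furin, a protease that processes Adam17 and some family ligands, was 6.26 and 81.4 FPKM, 13.0-fold higher, and Erap1 was 8.63 and 21.8. Adam17, the main sheddase of TNF and its receptors, was 29.3 and 53.6 FPKM, within 2-fold. So were its partner Frmd8 (9.53 and 11.1) and the related sheddase Adam10 (65.3 and 52.3). The partner Rhbdf2 (1.90 and 4.42) was within 2-fold on the log2(FPKM + 1) scale and 2.33-fold higher as a ratio. Timp3, the tissue inhibitor of Adam17, was 156 and 41.3 FPKM, 3.77-fold lower, and Rhbdf1 was 13.9 and 5.16 and lower. Of the relatives that the naming rule does not reach, Relt was 0.959 and 3.75 FPKM, higher, Rell1 was 19.7 and 14.8, and Rell2 was listed at 0 and at 0.137.

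Genes that endothelium is known to switch on under TNF were mostly higher, 18 of 26 (69.2%) against 1 lower, with a median of 2.17. Of all genes 16.78% were higher and 15.49% lower. Tnfaip3, Nfkbia and Birc3 are in this list and also in the inhibitor, NF-kB and ligase lists, so these lists are not separate results. Macrophages and mast cells express many of the TNF-induced genes, and their markers had medians of 5.88 and 4.96. The part of these cells in the values of this list was not tested. The 4 highest were Cxcl2 (0.894 and 616 FPKM), Csf2 (0.237 and 78.4), Il6 (1.0 and 110) and Tnfaip3. The 4 lowest were Ptx3, an innate pattern recognition protein (119 and 15.6), Tnfaip6 (12.1 and 7.63), the leukocyte adhesion molecule Vcam1 (23.3 and 17.0) and F3, tissue factor (2.14 and 1.98). The adhesion genes Sele, Icam1 and Selp were picked out after their values were seen. Sele, which encodes the E-selectin of activated endothelium, was 2.28 and 2.51 FPKM. Icam1 (29.4 and 88.9) and Selp (0.893 and 3.20) were higher.

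**Figure D4:**
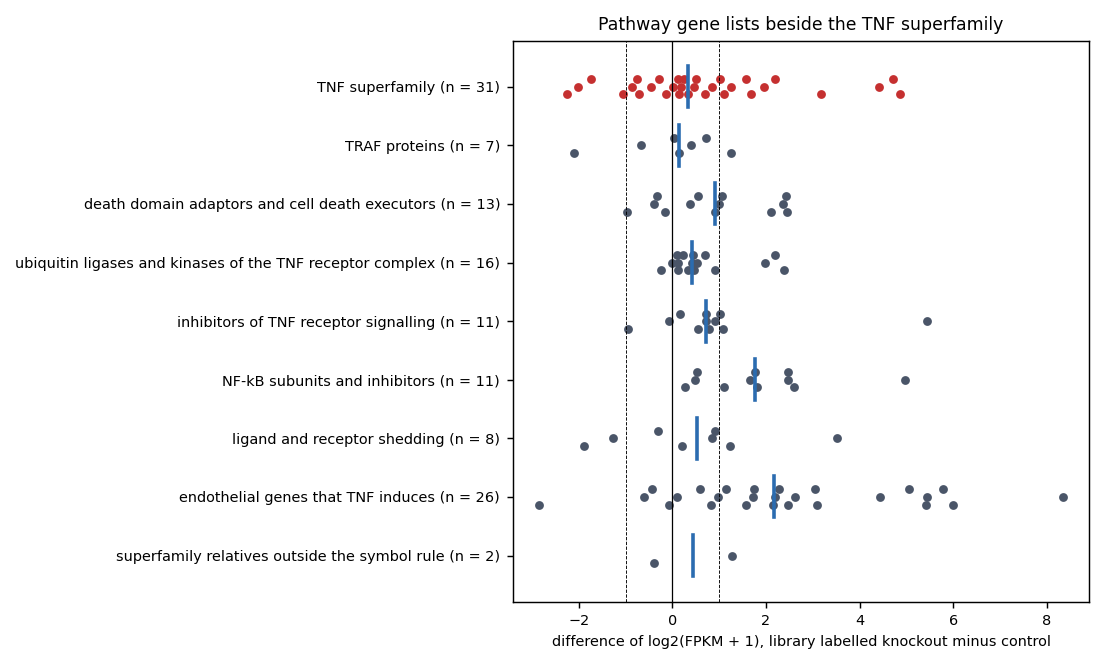
Difference of log2(FPKM + 1), knockout-labelled library minus control, for each gene at 1 FPKM or more in the TNF superfamily (red) and in 8 pathway lists (grey), with blue bars at the medians and dashed lines at 2-fold. The TRAF proteins have a median of 0.15, with 1 gene past 2-fold on either side. The ligases and kinases have a median of 0.42, with 3 genes past 2-fold higher, beside 0.34 for the TNF superfamily. The NF-kB and TNF-induced lists lie to the right, with medians of 1.76 and 2.17.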

How the data were processed

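The submitters' processing notes name STAR 2.5.2b, Cufflinks 2.2.1, Cuffnorm, R 3.3.2 and mm9, with no roles. The values, 1 per gene symbol, were taken as FPKM as deposited by the authors, from these tool names and because they are decimals of at least 0 whose sums are not 1000000 (sums 415537 and 530294). The sources used here do not state annotation, scaling between libraries or strand setting. Libraries were made with the ScriptSeq v2 kit, per the labels' protocols.

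From these values Python 3.11.15 (pandas 2.3.3, scipy 1.17.1) gave ratios and differences of log2(FPKM + 1), with a minimum of 1 FPKM in at least 1 library and a threshold of 2-fold. Depth was estimated from genes with a single GENCODE M21 transcript (2500 nt or longer), fragments taken as 200 nt and up to 5 fragments. The best of 500 steps, among those that left at least 100 values in this range, put 83.0% of 159 control values and 76.0% of 175 others within 0.1 of a whole number. Members' fragments use the longest coding transcript. No count model was run. The difference and its threshold were tested on simulated data only for genes at 5 FPKM or more in control. That test does not cover the many members under this level.

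Named genes are all members, Dot1l, and in each pathway list the 4 highest and 4 lowest differences, or the whole list if it has 8 or fewer such genes; markers of other cells were fixed lists. A few genes under this rule are not reported here. Any other gene was picked after seeing its values. Members, lists and alternatives were chosen with earlier results of these data known. Of the listed names, Fam105b, Emr1, Ly6g, Trac, Ighm and Hbb-bt had no row. Erythroid markers were mixed, with 1 of 5 lower (sums 197 and 66.9 FPKM).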

Additional observations from a re-analysis of the deposited data

How the results depend on the processing

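No paired analysis was possible because there is a single pooled library of either genotype, which also bars leaving one out. Of the 31 members at 1 FPKM or more, the 11 higher became 6 with a pseudocount of 5, 7 with a minimum of 5 FPKM and 7 at 3-fold. The 4 lower became 7 with a pseudocount of 0.1, 7 with both libraries scaled to sum to 1000000, 7 at 1.5-fold, and 2 with a pseudocount of 5 or a minimum of 5 FPKM. The 4 lower pathway genes became 7 with that rescaling and 8 at 1.5-fold. The members' median of 0.34 was 0.58 and 0.15 with pseudocounts of 0.1 and 5, 0.20 and 0.27 with the libraries rescaled to that sum or to the same upper quartile, 0.34 with the median gene at 0, 0.34 with no minimum and 1.13 with a minimum of 5 FPKM. A higher minimum leaves fewer genes and a larger pseudocount shrinks low ones; otherwise the cause was not tested. Over all pseudocounts and rescalings, 6 of the 11 higher and 2 of the 4 lower members kept their call. They were Tnf, Tnfrsf1a, Tnfrsf1b, Tnfrsf9, Tnfsf9 and Tnfsf14, and Ngfr and Tnfrsf19. No called member could change direction, because a pseudocount cannot reverse a difference and the rescalings were smaller than 2-fold. Low depth limits 4 members that rest on 1 to 3 estimated fragments in control and 4 in the other library.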
